A study of Homo sapiens with 8 samples.

Results

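Heat-shock proteins and cytosolic chaperones were followed as 42 genes among the 60291 genes of the count files. They were taken by symbol from a fixed list and all 42 were found. All 42 passed the filter on low counts, which asked for 10 reads or more in any of the 7 compared libraries and left 17811 genes. The list held the heat-shock factors HSF1 and HSF2, 7 HSP70 genes, 3 HSP110 exchange factors, 2 HSP90 genes, 7 co-chaperones of HSP90 and HSP70, 8 J-domain proteins, 3 BAG proteins, 3 small heat-shock proteins, the mitochondrial chaperonin pair HSPD1 and HSPE1, 4 subunits of the cytosolic chaperonin CCT and the collagen chaperone SERPINH1. Although the list is named for the cytosol, HSPD1, HSPE1, HSPA9 and DNAJA3 act mainly in mitochondria, HSPA13 and SERPINH1 belong to the secretory compartment, and HSF1 and HSF2 are transcription factors.

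A549, an established lung adenocarcinoma cell line with mutant KEAP1 and constitutively high activity of the transcription factor NRF2, was profiled by strand-specific sequencing of ribosomal-RNA-depleted total RNA. In each siRNA transfection 250000 cells received Lipofectamine RNAiMAX with 5 nmol siRNA, and RNA was collected at 48 h. Of the 8 libraries, 3 were from cells given siRNA against NFE2L2, the gene of NRF2, each with a different duplex, 4 were from cells given control siRNA, with 2 duplexes used in 2 transfections each, and 1 was a mock transfection with Lipofectamine and no siRNA. All groups shared the cell line, and the labels do not say whether the transfections came from separate cultures, so that the p-values below measure only the spread between these samples. The comparison asks which transcripts depend on NRF2 in these cells.

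Chaperones bind unfolded or partly folded proteins and help them reach or keep their structure. HSP70 and HSP90 work in ATP-driven cycles that J-domain proteins, nucleotide exchange factors and other co-chaperones steer, whereas CCT and the HSPD1 and HSPE1 pair enclose their clients in a barrel. Under proteotoxic stress HSF1 binds heat-shock elements, arrays of inverted GAA units, in the promoters of many of these genes, while NRF2 with a small MAF partner binds antioxidant response elements in the promoters of detoxification and redox genes.

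The libraries held 35525141 to 41645410 reads assigned to genes. With NFE2L2 siRNA, 1178, 2044 and 1262 reads were left on NFE2L2 against 3974 to 4227 in the control siRNA libraries (log2 fold change −1.55, SE 0.178, adjusted p = 0.000994), and the NRF2 targets NQO1, GCLM, TXNRD1, SRXN1, HMOX1 and GCLC all fell, with log2 fold changes from −2.57 (TXNRD1) to −1.94 (HMOX1). Of the epithelial markers, KRT8 had 149218 to 267462 reads per library, KRT18 111143 to 214941, CDH1 3627 to 9868, KRT19 1475 to 4831 and EPCAM 142 to 427, while the leukocyte genes PTPRC and CD3E had 0 to 3 reads, the endothelial gene VWF 2 to 5 and the fibroblast genes COL1A2 and DCN 0 to 3. CD14 (156 to 394 reads), CDH5 (3 to 39 reads), PDGFRB (4 to 13 reads) and COL1A1 (142 to 569 reads) were also detected. COL1A1 rose from 143 to 169 reads with control siRNA to 331 to 569 with NFE2L2 siRNA (adjusted p = 0.000493), and CDH5 rose as well (log2 fold change 1.99, adjusted p = 0.00820). CD14, KRT19 and CDH1 had log2 fold changes of 0.80, 0.88 and 0.74 (adjusted p = 0.0287, 0.0201 and 0.0455). Their part in the results below was not tested.

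Of the 42 chaperone genes, 3 fell with NFE2L2 siRNA at an adjusted p under 0.01 (7.14%, against 1.36% of all tested genes) and none rose (0 of 42, against 1.39% of all tested genes). These 3 were the J-domain gene DNAJB4, the inducible HSP70 gene HSPA1B and the HSP70 exchange factor BAG2. At an adjusted p under 0.05 the numbers were 6 reduced (14.3%, against 3.54%) and 1 increased (2.38%, against 4.63%), which added HSPA1A and the HSP90 co-chaperones PTGES3 and FKBP4 on the reduced side and HSPA2 on the increased side. At an unadjusted p under 0.05 the edgeR test gave 24 members (57.1%, against 25.0% of all tested genes), 4 of them increased (9.52%, against 13.3%), and none was increased at an adjusted p under 0.01 by DESeq2 or limma-voom either. When single libraries were left out, the reduced members numbered from 0 (without the second control library) to 5 (without NFE2L2 duplex 2), and the increased members 2 without NFE2L2 duplex 1 and 0 otherwise. Over all genes, 243 fell in the main fit, 128 without the second control library and 521 without NFE2L2 duplex 2. Without NFE2L2 duplex 1, 540 genes passed, of which 263 fell. Against either control duplex alone, or with both libraries of a control duplex added together, no member passed 0.01, and the adjusted p of DNAJB4 was 0.0333, 0.0469 and 0.0528 in these 3 fits. Over all genes, 120, 59 and 78 passed in these fits, against 491 in the main fit.

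Most of the other members had small negative fold changes. The log2 fold change was below 0 for 35 of 42 (83.3%, against 48.7% of all tested genes), with a median of −0.21 against 0.01 over all tested genes and −0.01 over the 10919 tested genes with at least as many reads on average as the lowest member. For 19 of 42 members (45.2%, against 11.4% of all tested genes) every NFE2L2 siRNA library was below every control siRNA library, and for 2 members, HSPA2 and DNAJB2, every one was above (4.76%, against 11.9%). In bulk samples, less of a transcript per cell and fewer cells that make it cannot be told apart, and all levels are relative to the counts of the other genes. The plot of fold changes by role shows DNAJB4, HSPA1B, BAG2 and HSPA1A at its low end and the bulk of the members just below 0.

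**Figure D1:**
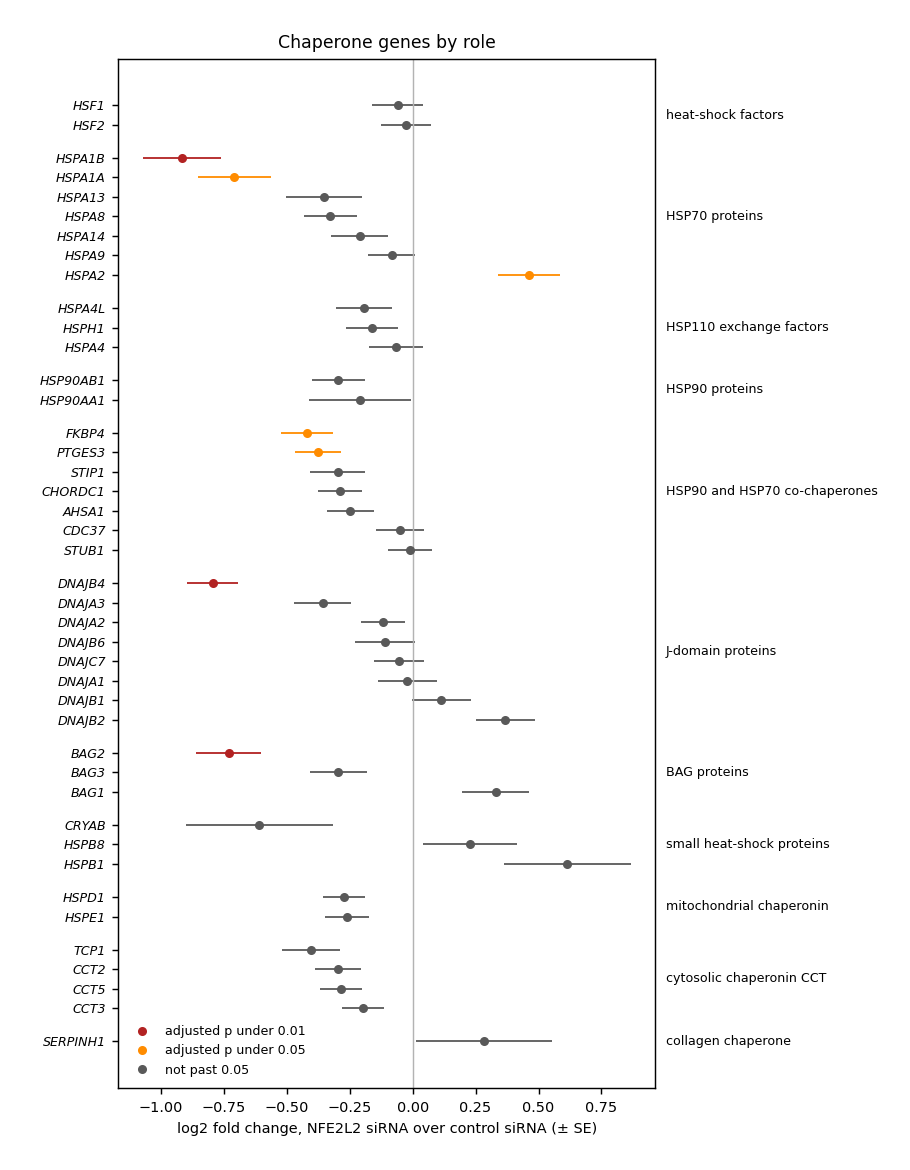
Log2 fold change of each chaperone gene with NFE2L2 siRNA (n = 3) over control siRNA (n = 4) on the horizontal axis, with bars of 1 SE, genes grouped by role and coloured by adjusted p in edgeR. The 3 genes in red (DNAJB4, HSPA1B, BAG2) lie between −0.92 and −0.73, and 35 of 42 points lie below 0.

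The RefSeq promoters of the reduced genes show how their sequences compare with those of heat-shock genes in general. The upstream 150 bases are printed 5′ to 3′ (build GRCh38.p14) for HSPA1A (chr6:31815393-31815542, plus strand), HSPA1B (chr6:31827588-31827737, plus strand), the downstream of the annotated starts of DNAJB4 (chr1:78004789-78004938, plus strand) and BAG2 (chr6:57172176-57172325, plus strand), chosen because these members had the lowest adjusted p-values. Capitals mark a pair of inverted GAA units, GAANNTTC or TTCNNGAA.
HSPA1A: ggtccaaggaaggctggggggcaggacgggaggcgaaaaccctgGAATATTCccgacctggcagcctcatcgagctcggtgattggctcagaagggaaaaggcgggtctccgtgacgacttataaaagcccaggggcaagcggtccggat
HSPA1B: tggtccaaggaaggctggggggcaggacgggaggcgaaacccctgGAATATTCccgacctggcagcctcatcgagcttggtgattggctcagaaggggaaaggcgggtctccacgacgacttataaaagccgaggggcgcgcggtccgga
DNAJB4: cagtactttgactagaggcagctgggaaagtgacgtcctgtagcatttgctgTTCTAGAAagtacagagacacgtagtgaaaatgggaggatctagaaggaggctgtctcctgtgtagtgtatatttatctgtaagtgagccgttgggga
BAG2: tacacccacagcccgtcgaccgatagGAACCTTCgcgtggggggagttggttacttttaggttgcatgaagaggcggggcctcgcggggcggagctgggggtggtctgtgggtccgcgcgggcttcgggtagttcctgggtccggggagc

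The search matched only exact GAA and TTC units, so an array with an altered unit would be missed. Each of these promoters held 1 exact pair and none held a longer exact array. It began at −106 from the start in HSPA1A, −105 in HSPA1B, −98 in DNAJB4 and −124 in BAG2, and no match was present upstream of the other annotated start of DNAJB4. The regions 250 bases upstream of HSPA1A and HSPA1B aligned with 235 identical bases, 14 mismatches and 2 gap positions. None of the 4 promoters contained the antioxidant response element core TGACNNNGC on either strand, which says only that these letters are absent from the window of 250 bases before and 50 after the start.

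For comparison, the same 150 bases are given for genes that have arrays of at least 3 alternating units. They are the constitutive HSP70 gene HSPA8 (chr11:123062137-123062286, minus strand) and the HSP90 co-chaperone CHORDC1 (chr11:90223050-90223199, minus strand). The start of HSP90AA1 that carries a match (chr14:102087045-102087194, minus strand) is also given. Capitals again mark every pair of inverted units, so a single pair outside the array is also in capitals in CHORDC1 and HSP90AA1.
HSPA8: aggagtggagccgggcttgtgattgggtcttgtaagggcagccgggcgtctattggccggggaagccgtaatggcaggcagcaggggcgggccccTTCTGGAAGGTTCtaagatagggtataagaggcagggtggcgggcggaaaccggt
CHORDC1: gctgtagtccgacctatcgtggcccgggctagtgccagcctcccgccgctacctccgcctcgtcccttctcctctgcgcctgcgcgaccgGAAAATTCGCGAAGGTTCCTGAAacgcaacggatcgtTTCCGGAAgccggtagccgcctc
HSP90AA1: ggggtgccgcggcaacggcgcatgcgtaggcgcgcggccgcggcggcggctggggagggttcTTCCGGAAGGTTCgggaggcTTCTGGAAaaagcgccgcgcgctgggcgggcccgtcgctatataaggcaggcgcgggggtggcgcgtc

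A promoter was found for 37 of the 42 members, and HSF1, HSPA14, FKBP4, STUB1 and CRYAB had none in the table used. A pair of inverted units occurred in 20 of 37 member genes (54.1%) and in 16.2% of the 27305 genes with a promoter, counting a gene once for all of its starts. A run of at least 3 units in alternating orientation, which contains the pair, occurred in 8 of 37 (21.6%) and in 0.608% of all. The 8 genes were HSPA8, HSP90AA1, HSP90AB1, CHORDC1, DNAJA1, DNAJB6, HSPD1 and SERPINH1. The antioxidant response element core, which can overlap any of the others, was found in 7 of 37 members (18.9%) against 16.1% of all genes, and CCAAT, searched on both strands, in 14 of 37 (37.8%) against 39.7%.

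The fold changes of members with and without these matches overlapped. A match is by exact letters within the window, so a member without one may still carry an element. The 8 genes with at least 3 units had a median log2 fold change of −0.24, ranging from −0.33 to 0.28, and none of them passed the threshold of 0.01, while the 29 members without such a run had a median of −0.20. The 20 members with at least a pair had a median of −0.28 and held all 3 reduced genes, and the 17 without a pair had a median of −0.16. The 7 members with the antioxidant response element core (AHSA1, DNAJA2, DNAJB6, HSP90AB1, HSPA4L, HSPB1 and PTGES3) had a median of −0.19 against −0.23 for the 30 without it. These medians are descriptions of the lists, and the map of matches shows how the heat-shock pairs and runs are scattered within the promoter windows.

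**Figure D2:**
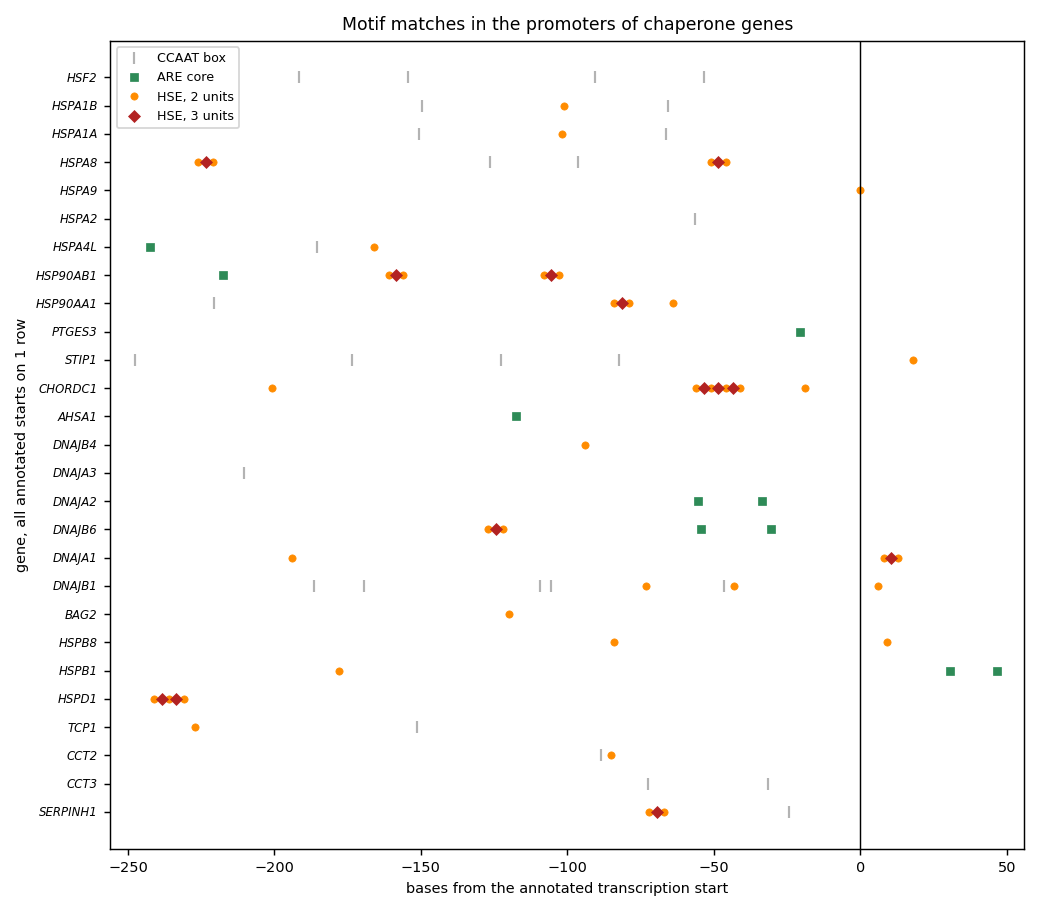
Matches to the heat-shock element (HSE; 2 or at least 3 alternating units), the antioxidant response element (ARE) core and CCAAT along the promoter window, in bases from the annotated start, for the member genes with any match. Diamonds mark the 8 genes with an array of 3 units, and the reduced genes HSPA1B, DNAJB4 and BAG2 have single orange points.

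Neither heat-shock factor differed detectably between the groups. HSF1, the main activator of the heat-shock genes, had 78.1, 83.1 and 86.3 CPM (counts per 1000000 reads on genes, on the TMM scale) with NFE2L2 siRNA, 91.7, 94.8, 75.7 and 81.4 with control siRNA and 82.7 in the mock library. The groups overlapped, and the log2 fold change was −0.06 (SE 0.102, adjusted p = 0.766). HSF2, a related factor, stood at 13.6 ± 0.544 CPM (SD, n = 3) against 13.9 ± 0.721 (SD, n = 4). Its log2 fold change was −0.03 (SE 0.101, adjusted p = 0.905).

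The stress-inducible HSP70 genes HSPA1A and HSPA1B, which lie next to each other in the major histocompatibility complex on chromosome 6 (GRCh37 31783320 to 31785723 and 31795515 to 31798031), both encode the inducible cytosolic HSP70. HSPA1B had 25.1, 39.0 and 28.6 CPM with NFE2L2 siRNA against 66.2, 59.4, 52.7 and 55.0 with control siRNA and 56.1 in the mock library. Every NFE2L2 siRNA library was below every control, with the highest value for the second duplex. It fell by 0.92 on the log2 scale (SE 0.155, adjusted p = 0.00752). The call was lost when any 1 library other than that of NFE2L2 duplex 2 was left out, with adjusted p-values up to 0.0358.

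HSPA1A had 40.5, 66.0 and 51.7 CPM against 90.2, 85.9, 83.8 and 84.8, and 86.3 in the mock library. The second NFE2L2 duplex was again the highest of the 3 and the groups did not overlap. Its log2 fold change was −0.71 (SE 0.147, adjusted p = 0.0181), short of the threshold of 0.01. In the annotated transcripts, 73.8% of the 75-base windows of HSPA1A occur exactly in HSPA1B, and 70.2% of those of HSPA1B in HSPA1A. Reads from such stretches have no unique place and are left out of gene counts, so that the levels of both genes are understated and their difference is uncertain. Summed to 1 feature, the pair had 2347, 4128 and 3414 reads with NFE2L2 siRNA against 5826, 5404, 5053 and 5046, a log2 fold change of −0.79 (SE 0.147, adjusted p = 0.0112).

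HSPA8, the constitutive HSP70 and the member with the most reads in every library, had 1953, 2111 and 1719 CPM with NFE2L2 siRNA, 2555, 2593, 2197 and 2329 with control siRNA and 2418 in the mock library. All 3 NFE2L2 siRNA values were below the controls, by a small margin for duplex 2. The log2 fold change was −0.33 (SE 0.105, adjusted p = 0.0874). HSPA2, an HSP70 best known from the testis, went the other way, with 268, 386 and 351 CPM against 248, 226, 252 and 248, and 211 in the mock library. The first NFE2L2 duplex stayed close to the controls and the other two stood well above. Its log2 fold change was 0.46 (SE 0.122, adjusted p = 0.0479), and with that library left out it was 0.60 (adjusted p = 0.00476). The remaining HSP70 genes did not pass either threshold. HSPA13 had a log2 fold change of −0.35, HSPA14 of −0.21 and HSPA9, the mitochondrial HSP70, of −0.08, and only HSPA14 among them had no overlap of groups.

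The HSP110 proteins, which exchange the nucleotide of HSP70, had log2 fold changes of −0.19 (HSPA4L), −0.16 (HSPH1) and −0.07 (HSPA4), with adjusted p-values from 0.316 to 0.751 and overlapping groups for all 3. Of the BAG proteins, which bind HSP70 to release its nucleotide, BAG2 also inhibits the ubiquitin ligase STUB1. BAG2 (GRCh37 chromosome 6, 57037124 to 57054631) had 46.1, 50.3 and 38.8 CPM with NFE2L2 siRNA, 81.3, 84.4, 65.7 and 67.8 with control siRNA and 62.2 in the mock library. The groups were apart, although the mock library was also below every control and the controls of duplex 1 stood above those of duplex 2. It fell by 0.73 on the log2 scale (SE 0.129, adjusted p = 0.00895). The call was lost on leaving out any 1 library other than that of NFE2L2 duplex 2, with adjusted p-values up to 0.0372.

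BAG3, an HSF1 target that links HSP70 to selective autophagy, had 55.0, 67.2 and 50.1 CPM against 73.6, 73.3, 66.8 and 68.4, and 69.2 in the mock library. The second NFE2L2 duplex lay within the control values, and the log2 fold change was −0.30 (SE 0.112, adjusted p = 0.136). BAG1, at 107 ± 19.8 CPM (SD, n = 3) against 84.9 ± 7.50 (SD, n = 4), had a positive log2 fold change of 0.33 (SE 0.132, adjusted p = 0.156). STUB1 itself was at −0.01 (adjusted p = 0.962).

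The J-domain proteins deliver substrates to HSP70 and stimulate its ATPase, and 1 of the 8 fell. DNAJB4 (GRCh37 chromosome 1, 78444859 to 78483648, plus strand) had 37.3, 38.5 and 30.9 CPM with NFE2L2 siRNA, 60.6, 63.4, 61.2 and 61.3 with control siRNA and 55.2 in the mock library. The mock value was thus also below every control. No other of the 3 called genes had controls so close together. It fell by 0.79 on the log2 scale, which is a fall of 42.4% (SE 0.101 on the log2 scale, adjusted p = 0.00177). Of the 7 libraries, only the omission of the second control raised its adjusted p above 0.01, to 0.0112. It overlaps GIPC2 on the same strand, a gene with 0 to 7 reads per library.

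The other J-domain genes did not pass the threshold of 0.05. DNAJB1, the classical heat-induced HSP40, had 128, 181 and 152 CPM against 142, 150, 135 and 141, and 141 in the mock library. The groups overlapped and the log2 fold change was 0.11 (SE 0.117, adjusted p = 0.592). For DNAJA3, a mitochondrial J-domain protein, it was −0.36 (adjusted p = 0.0795) without overlap of groups, and for DNAJB2, abundant in neurons, 0.37 (adjusted p = 0.0846) with all 3 NFE2L2 siRNA libraries above the controls. DNAJA2 (−0.12), DNAJB6 (−0.11), DNAJC7 (−0.05) and DNAJA1 (−0.02) were nearer to 0.

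**Figure D3:**
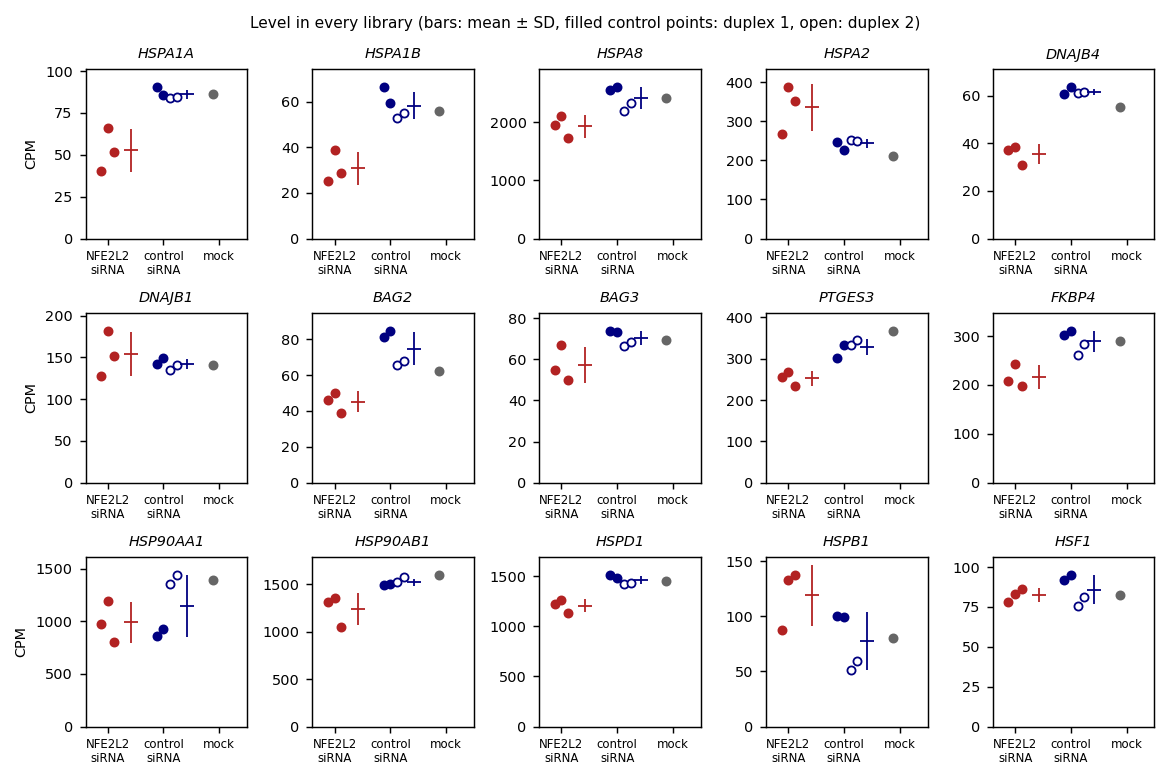
Level in CPM on a linear axis from 0 in every library for 15 chaperone genes, with mean ± SD beside the NFE2L2 siRNA (n = 3) and control siRNA (n = 4) points. The NFE2L2 siRNA points of DNAJB4, HSPA1B, HSPA1A and BAG2 are all below their controls, and the filled and open control points, the 2 control duplexes, are apart for HSP90AA1 and HSPB1.

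Of the HSP90 genes, HSP90AB1, the constitutive form, had 1317, 1354 and 1047 CPM with NFE2L2 siRNA, 1494, 1499, 1519 and 1574 with control siRNA and 1593 in the mock library. The groups did not overlap and the log2 fold change was −0.30 (SE 0.105, adjusted p = 0.115). HSP90AA1, the inducible form, had 978, 1195 and 804 CPM with NFE2L2 siRNA. Its controls were split by duplex, with 861 and 931 for duplex 1 against 1357 and 1438 for duplex 2, and the mock library had 1399. The log2 fold change was −0.21 (SE 0.202, adjusted p = 0.566). It was 0.14 against duplex 1 alone and −0.50 against duplex 2 alone, so that its direction rested on the control used.

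All 7 co-chaperones had negative fold changes, but none passed the threshold of 0.01. PTGES3, the p23 protein that holds HSP90 in its closed state, had 256, 269 and 233 CPM against 301, 333, 334 and 346, and 366 in the mock library. Its groups did not overlap, and the log2 fold change was −0.38 (SE 0.0912, adjusted p = 0.0345). FKBP4, an immunophilin of the steroid receptor complexes, had 208, 244 and 198 CPM against 302, 310, 262 and 284, and 290 in the mock library. Again every NFE2L2 siRNA value was below every control, with a log2 fold change of −0.42 (SE 0.104, adjusted p = 0.0373). STIP1, which bridges HSP70 and HSP90, CHORDC1, and AHSA1, which activates the HSP90 ATPase, had log2 fold changes of −0.30, −0.29 and −0.25 without overlap of groups. CDC37, which brings kinases to HSP90, had −0.05.

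No chaperonin gene passed either threshold. HSPD1, which forms the barrel, had 1218, 1266 and 1135 CPM against 1507, 1479, 1421 and 1430, and 1455 in the mock library. The highest NFE2L2 siRNA value was below the lowest control, and the log2 fold change was −0.27 (SE 0.0834, adjusted p = 0.0740). HSPE1, its lid, which is transcribed from the same region in the opposite direction, had −0.26 (adjusted p = 0.101). It shares its region with the readthrough HSPE1-MOB4, which had 3 to 9 reads per library. The CCT subunits TCP1 (−0.40), CCT2 (−0.30), CCT5 (−0.28) and CCT3 (−0.20) all had lower values in every NFE2L2 siRNA library than in any control, with adjusted p-values from 0.0586 to 0.180. HSPD1 has 18 named pseudogenes, with up to 511 reads on 1 of them in a library, and HSPE1 has 26, so that part of their reads may have been assigned elsewhere.

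None of the small heat-shock proteins, which hold unfolded proteins without ATP, passed either threshold. HSPB1 had 87.1, 133 and 137 CPM with NFE2L2 siRNA, 100.5 and 99.6 with control duplex 1, 51.5 and 59.1 with control duplex 2 and 80.4 in the mock library. The log2 fold change was 0.61 (SE 0.253, adjusted p = 0.166), and was 0.24 against duplex 1 alone and 1.10 against duplex 2 alone. CRYAB was low, with 4.32 ± 2.13 CPM (SD, n = 3) against 6.62 ± 1.42 (SD, n = 4), and its log2 fold change was −0.61 (SE 0.292, adjusted p = 0.229). HSPB8, the partner of BAG3, had 0.23 (SE 0.187, adjusted p = 0.495). SERPINH1 had 81.3 CPM with the first NFE2L2 duplex and 209 and 208 with the others, against 149.3, 145.6, 123.1 and 128.4 in the controls. Its log2 fold change was 0.28 (SE 0.270, adjusted p = 0.560), and without the first duplex it was 0.61 (adjusted p = 0.00834).

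The members also differed between the NFE2L2 duplexes. The median member stood −0.18, −0.18 and −0.36 from the control mean on the log2 scale with duplexes 1, 2 and 3. Below all 4 controls were 25 members with duplex 1 (59.5%, against 33.1% of all tested genes), 29 with duplex 2 (69.0%, against 31.0%) and 28 with duplex 3 (66.7%, against 33.4%). Together the 42 genes took 1.27%, 1.36% and 1.17% of the gene counts with the NFE2L2 duplexes, 1.38% to 1.51% with control siRNA and 1.52% in the mock library. The highest of the 3 NFE2L2 siRNA values was that of duplex 1 for 15 members, of duplex 2 for 21 and of duplex 3 for 6, against 36.2%, 32.5% and 31.4% of all tested genes. With 1 library per duplex these differences have no replicate check.

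**Figure D4:**
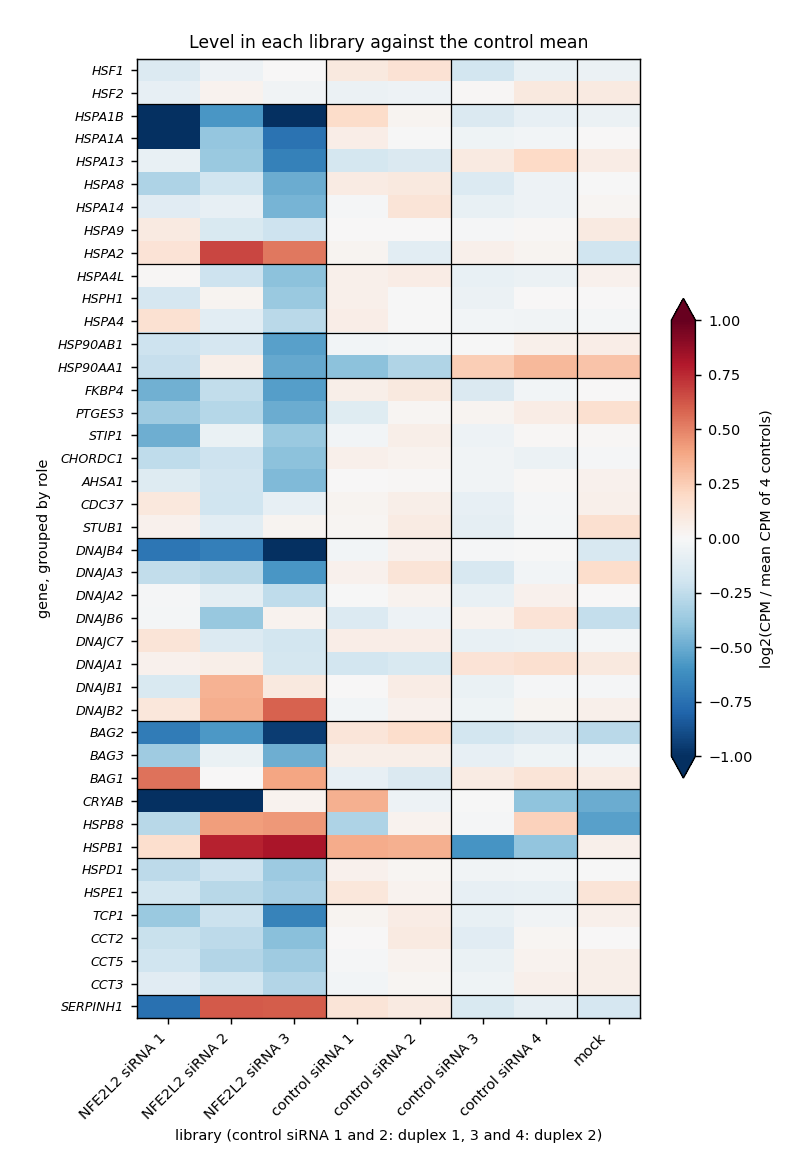
Log2 ratio of each chaperone gene's CPM in each of the 8 libraries to the mean of the 4 control libraries, genes in rows grouped by role, with the color scale ending at −1 and 1. The NFE2L2 siRNA columns are mostly blue, deepest for duplex 3, while HSP90AA1 and HSPB1 change color between the control duplexes.

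The control libraries gave a measure of how far these genes move with no siRNA against NFE2L2. In the fit on the 7 libraries, 0 of 42 members differed between control duplex 2 and duplex 1 (0% of all tested genes), with 4 members and 1293 genes at an unadjusted p under 0.05 in edgeR, and no member was called by DESeq2, which called 70 genes, or limma-voom. In a fit on the 4 control libraries alone, 2 of 42 members passed (3.28% of the 17261 genes tested there), HSP90AA1 with a log2 difference of 0.65 (adjusted p = 0.000771) and HSPB1 with −0.85 (adjusted p = 0.000141). Both libraries of duplex 2 were above both of duplex 1 for 9 members (21.4%, against 27.4%), and below for 21 of the 42 (against 28.2%). Among the 10919 tested genes with at least the mean reads of the lowest member, these shares were 26.1% and 36.1%. No member of the mock library was over 1.5-fold above the mean of the controls (0 of 42, against 3.04% of all tested genes) or over 1.5-fold below it (0 of 42, against 6.41%). HSPB8, at 0.685 of the control mean, and HSP90AA1, at 1.22, were the lowest and the highest.

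Per kilobase of transcript the members spanned a 200-fold range in the control libraries. HSPA8 was highest at 1068 CPM per kilobase, followed by HSPD1 at 650 and HSP90AB1 at 595, which were within 1.5-fold of each other and are not ordered. HSPE1 (388), HSP90AA1 (355) and CCT3 (327) came next, again not ordered among themselves. Of the reduced genes, DNAJB4 stood at 21.2 and BAG2 at 11.2, and HSF2 was lowest at 5.35. HSPA1B was listed at 23.2 and HSPA1A at 35.9, but the reads they share are uncounted, so that their places in the order are too low by an unknown amount. Of the 41 neighbouring pairs, 38 were within 1.5-fold and 30 had overlapping ranges over the 4 libraries. HSPA6, an HSP70 gene expressed almost only under severe stress, had 22 to 41 reads per library.

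**Figure D5:**
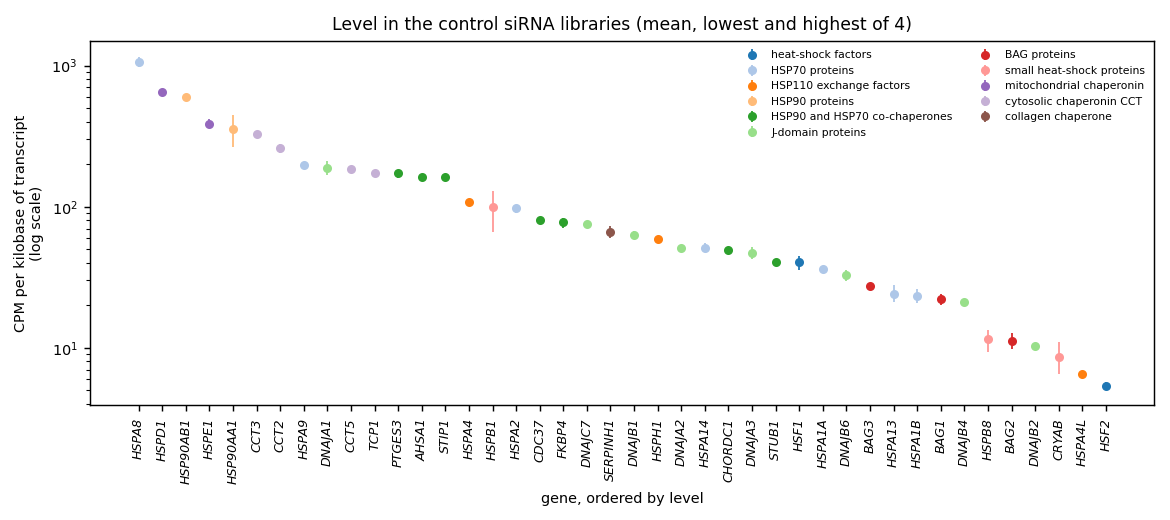
Level of the 42 chaperone genes in CPM per kilobase of transcript (log axis) in the 4 control siRNA libraries, ordered by the mean, with bars from the lowest to the highest library. HSPA8 stands at 1068 and HSF2 at 5.35, and the reduced genes DNAJB4 and BAG2 at 21.2 and 11.2. The points of HSPA1A and HSPA1B are understated, since reads shared by the pair are uncounted.

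Beyond the members, 79 other chaperone genes were listed, of which 78 were found and 71 were tested. At an adjusted p under 0.01, 0 of the 71 passed with edgeR, against 491 of the 17811 tested genes. At an unadjusted p under 0.05 the edgeR test gave 20 (28.2%, against 25.0% of all tested genes). DESeq2 called 2, GRPEL1 and BCS1L, both reduced, and 1319 genes in all. Every NFE2L2 siRNA library was below every control for 17 of the 71 (23.9%, against 11.4%) and above for 4 (5.63%, against 11.9%). The median log2 fold change was −0.07, and 45 of 71 were below 0 (63.4%, against 48.7% of all tested genes). GRPEL1, the nucleotide exchange factor of mitochondrial HSP70, had the lowest p of them, with 61.0, 54.4 and 42.7 CPM against 84.0, 86.5, 69.8 and 69.8 (log2 fold change −0.56, SE 0.139, adjusted p = 0.0381), and was singled out after its values were seen. The other CCT subunits and prefoldin had a median of −0.15 over 12 genes, from −1.06 (VBP1) to 0.11, with 9 below 0. The 4 CCT members had a median of −0.29. VBP1 differed between the NFE2L2 duplexes, with 22.5, 81.2 and 30.7 CPM against 89.7, 100, 89.8 and 94.1 with control siRNA. Its SE was 0.361 and its adjusted p in edgeR was 0.103. The 14 chaperones of the endoplasmic reticulum had a median of 0.10, with 9 of them above 0. CALR at 0.29 (adjusted p = 0.114) was among the 2 with every NFE2L2 siRNA library above every control. SDF2L1 at −0.27 (adjusted p = 0.168) was among the 2 with every such library below. Over all tested genes, 11.9% were above and 11.4% below in this way.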

How the data were processed

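Total RNA was sequenced for 8 libraries of A549 cells, grouped by their labels. The authors aligned reads to hg19 with HISAT 0.1.6 and deposited raw counts, the reads that HTSeq 0.6.0 assigned to each gene of GENCODE v19 by strand, with intersection-strict overlap (versions from the submitters' processing notes). Non-unique alignments carry no gene count. They were 18.2% to 19.1% of the entries with NFE2L2 siRNA, 16.9% to 17.7% with control siRNA and 17.0% in the mock library. What this difference does to the counts of HSPA1A and HSPA1B was not tested. Gene positions and canonical transcript lengths came from GENCODE v44 mapped to GRCh37, which holds 55538 of the 60291 identifiers. Promoters came from RefSeq on GRCh38.p14, and no coordinate was converted.

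Tests on the counts used R 4.3.3 and edgeR 4.0.16 (TMM, glmQLFit, glmQLFTest, two-sided, Benjamini-Hochberg over all 17811 tested genes, threshold 0.01). SE was taken as the size of the log2 fold change divided by the root of its F statistic. The control duplexes were compared in a fit with 3 groups. DESeq2 1.42.0 and limma-voom (limma 3.58.1) were among the alternatives. The fits by edgeR, DESeq2 and limma-voom were run on simulated data, and the other alternatives were not. CPM values use TMM factors of all 8 libraries.

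Values in every library are given for members with an adjusted p under 0.05 and for HSF1, HSPA1A, HSPA1B, HSPA8, HSP90AA1, HSP90AB1, HSPB1, DNAJB1, BAG3 and HSPD1. Of the other chaperone genes, at most 10 with an adjusted p under 0.01 were to be named. Those named, GRPEL1, BCS1L, VBP1, CALR, SDF2L1 and HSPA6, and SERPINH1's values by library were chosen after their values were seen. The members and lists were chosen with earlier results of these data known.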

Additional observations from a re-analysis of the deposited data

Results flagged for a closer look

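In 1 of the 42 members, 1 control siRNA library stood apart from the other three, by a gap that exceeded Dixon's 95% critical value for 4 samples. HSPA2 had 226 CPM in the second control library against 248 to 252 in the others. About 1 in 20 such groups are flagged by chance, which is 2.1 of 42.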

How the results depend on the processing

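No paired analysis was possible because an NFE2L2 siRNA title carries only a duplex number. A control title carries a duplex number and a repeat number, and the repeat numbers have no counterpart in the NFE2L2 siRNA titles. Over all genes, 491 passed the threshold, and this became 1319 with DESeq2, 1019 with a filter of 1 read, 120 and 59 with control duplex 1 or 2 alone, 772 with the mock library added to the controls, 78 with each duplex summed, 1456 at a threshold of 0.05, and 163 to 915 when single libraries were left out. Members reduced numbered 6 with DESeq2 and at 0.05, 0 with either control duplex alone or each duplex summed, and 0 to 5 without single libraries. With the second control library left out, none was called. Members increased numbered 1 at 0.05 and 0 to 2 without single libraries, the 2 (HSPA2 and SERPINH1) appearing without NFE2L2 duplex 1. The median fold change stayed between −0.28 and −0.15 without single libraries. Other chaperone genes called numbered 2 with DESeq2 and with the filter of 1 read, 1 at 0.05, and 0 to 1 without single libraries. Between the control duplexes, 70 genes passed with DESeq2, 8 with the filter of 1 read, 10 at 0.05, 566 with the 4 control libraries alone, where 2 members passed, and 0 when single libraries were left out. With the rep1 and rep2 numbers of the control titles as a replicate block, 2615 of 17261 genes and 12 of 42 members passed. This alternative was added after the data were seen. BAG1, DNAJA1, DNAJB6, HSP90AA1, HSPA13 and HSPB8 were higher with control duplex 2. The reduced genes BAG2 and HSPA1B were lower with it, as were DNAJA3, HSF1, HSPB1 and SERPINH1. The rep1 minus rep2 differences of the duplexes correlated at 0.268 over 13229 genes with a mean of at least 50 reads, but nothing else pairs these libraries. Reversed were HSP90AA1 against control duplex 1 alone (0.14), HSF1 against control duplex 2 alone (0.067) and DNAJB1 without NFE2L2 duplex 2 (−0.034), whose values without single libraries ran from −0.034 to 0.23. The cause was not tested.

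Each NFE2L2 duplex was transfected once, so the effect of a duplex and that of its library cannot be told apart. The control duplexes are not independent controls of each other's libraries, and fits against a single duplex have 5 libraries. Counts without unique places limit HSPA1A and HSPA1B, and depth limits CRYAB, with a mean of 214 reads.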
